A study of Mus musculus with 16 samples.

Results

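Mouse embryonic stem cells that lacked the DNA methyltransferases Dnmt1, Dnmt3a and Dnmt3b (DNMT_KO, a triple knock-out) were compared before and after they left the naive state. The contacts of their gene promoters were measured by promoter-capture Hi-C in epiblast-like cells (EpiLC, day 2) and in embryonic stem cells kept in 2i and Lif (ESC, day 0). These were 4 of the 16 samples of the series, 2 replicates by label at each stage. The other 12 samples were the same stages, with 2 replicates each, of the parental wild-type line DNMT_WT, of a line without Tet1, Tet2 and Tet3 (TET_KO) and of its parental wild-type line TET_WT. Both DNMT_KO stages carry all 3 deletions, so the comparison shows the change of stage in their absence and not the effect of the deletions. The labels do not say whether a line is a single clone or which agents turned the cells into EpiLC.

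The values were CHiCAGO scores, 1 for each captured promoter fragment (the bait), each other fragment and each of 8 columns, where a column stands for 1 line at 1 stage. A score rises as more ligation products are found than the distance and the capture would give by themselves, and 5 is the usual threshold for calling a contact. The table listed 260860 contacts of 20017 baits, of which 257567 joined fragments of the same chromosome (cis), and every listed contact reached 5 in at least 1 column. The replicates are not separate in these values, so no column has an SD and its sequencing depth is unknown. A difference between the DNMT_KO columns therefore has no test of its own and is given with both values. Expression was not measured, so neither the deletions nor the cell types could be checked in these values.

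DNA methyltransferases place methyl groups on cytosines of CpG dinucleotides: Dnmt3a and Dnmt3b set new marks, and Dnmt1 copies them when DNA is replicated. Naive ESC in 2i have little DNA methylation, and wild-type cells gain it genome-wide as they become EpiLC, which model the epiblast after implantation. Cells without all of these enzymes cannot gain it. Promoter contacts bring distant enhancers, other promoters and Polycomb-bound regions close to a gene.

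The strength of a promoter was taken as the mean of the inverse hyperbolic sine (asinh) of the scores of its listed contacts, after quantile normalisation between the 8 columns. On this scale a score of 5 is 2.31, and a difference of 0.69 is a doubling for high scores. Of 15677 promoters with at least 3 listed contacts, 698 (4.45%) were higher by at least a doubling in DNMT_KO EpiLC than in DNMT_KO ESC and 762 (4.86%) were lower. The same counts were 486 higher (3.10%) and 644 lower (4.11%) in DNMT_WT, 360 (2.30%) and 574 (3.66%) in TET_WT, and 376 (2.40%) and 603 (3.85%) in TET_KO. The SD of the stage difference over promoters was 0.416 in DNMT_KO, against 0.387 in DNMT_WT, 0.357 in TET_WT and 0.364 in TET_KO, with medians between -0.02 and -0.01. Without scaling between columns, 1084 promoters were higher and 568 were lower in DNMT_KO, so that 65.6% of those past a doubling were higher, against 47.8% after quantile normalisation. Over all promoters, the stage difference in DNMT_KO had a Spearman correlation of 0.392 with that in DNMT_WT, 0.354 with TET_WT and 0.391 with TET_KO; the points share neighbouring contacts and are not independent.

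Of the 698 promoters higher in DNMT_KO EpiLC, 308 had a difference of the same sign in all 3 other lines, and of the 762 lower ones 450 did. For 463 of the 698, the DNMT_KO ESC value lay below the ESC values of all 3 other lines, and for 418 the DNMT_KO EpiLC value lay above the EpiLC values of all 3. For 501 of the 762 lower ones, the DNMT_KO ESC value lay above all 3 other ESC values, and for 350 the DNMT_KO EpiLC value lay below all 3 other EpiLC values. Over all 15677 promoters, the DNMT_KO ESC value was the lowest of the 4 ESC columns for 3925. The DNMT_KO EpiLC value was the highest of the 4 EpiLC columns for 3698. Both sets were picked by the difference of these same 2 values, so outlying values among them follow in part from that choice. No share over all promoters was taken for the same-sign counts. The members of the list of replication-dependent histone genes and of the list of formative and primed epiblast genes lay mostly above the diagonal in the plot of DNMT_KO EpiLC against ESC values.

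**Figure D1:**
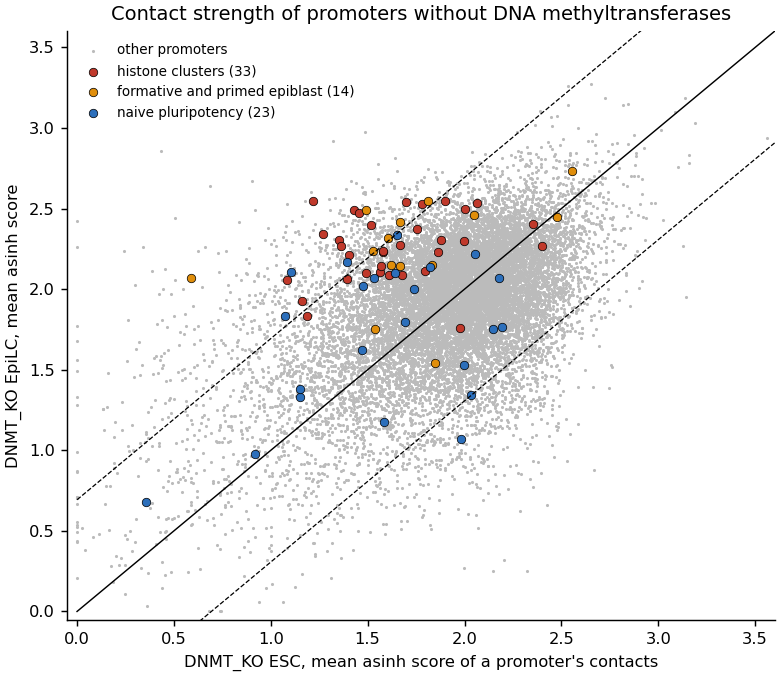
Mean asinh score of each of 15677 promoters in DNMT_KO EpiLC (vertical axis) against DNMT_KO ESC (horizontal axis), with the promoters of 3 gene lists in colour. The solid line marks equal values and the dashed lines a difference of 0.69; 12 of the 33 histone promoters and 6 of the 14 formative and primed epiblast promoters lie above the upper dashed line.

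The replication-dependent histone genes encode the histones made in S phase, and most of them lie on chromosome 13 in the Hist1 cluster, whose parts meet at the histone locus body. Their promoters were higher in DNMT_KO EpiLC than in DNMT_KO ESC. Of 33 promoters, 12 (36.4%, against 4.45% of all promoters) were higher by at least a doubling, none was lower by as much, and 31 were above 0, while 7727 of all 15677 promoters were above 0. Their median difference was 0.64 in DNMT_KO, against -0.0042 in DNMT_WT, -0.07 in TET_WT and -0.08 in TET_KO. In those lines no histone promoter was higher by a doubling, and 4 were lower by it in TET_KO. The median strength was 2.27 in DNMT_KO EpiLC, against 1.58 in DNMT_KO ESC. The DNMT_KO ESC value was the lowest of the 4 ESC columns for 26 of the 33 promoters, against 3925 of all 15677. The DNMT_KO EpiLC value was the highest of the 4 EpiLC columns for 23 of the 33, against 3698 of all 15677.

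**Figure D2:**
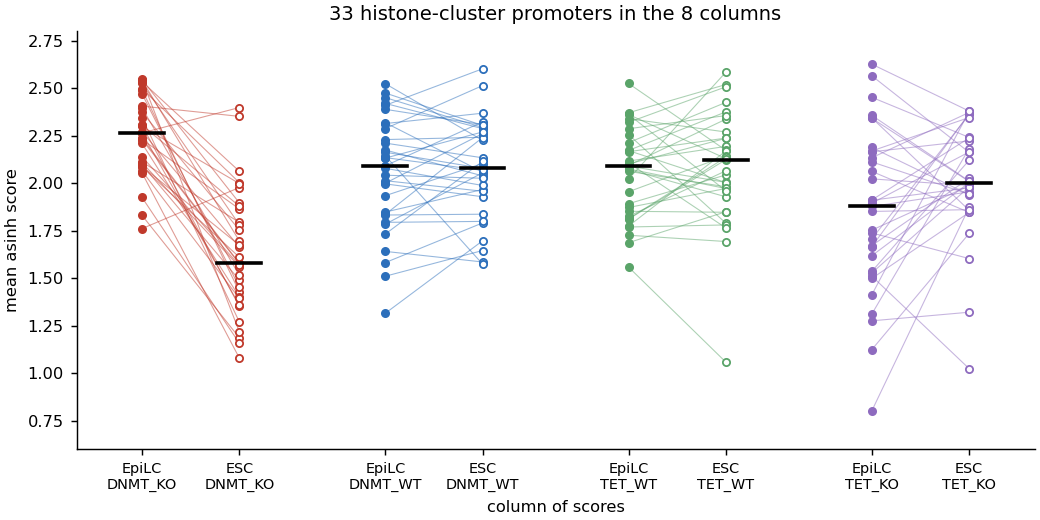
Mean asinh score of 33 promoters of replication-dependent histone genes in each of the 8 columns; filled circles are EpiLC, open circles ESC, thin lines join the values of a promoter and black bars are medians. The DNMT_KO ESC column is the low one, with a median of 1.58, against 2.27 in DNMT_KO EpiLC.

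Hist1h4i, which encodes histone H4, had a strength of 2.55 in DNMT_KO EpiLC, against 1.22 in DNMT_KO ESC, over 60 listed contacts. In the other lines it was 1.93 in EpiLC against 2.10 in ESC (DNMT_WT), 2.53 against 2.17 (TET_WT) and 2.02 against 1.99 (TET_KO). Hist1h2bg, an H2B gene, had 2.49 in DNMT_KO EpiLC, against 1.43 in DNMT_KO ESC, while the 6 other columns lay between 2.13 and 2.60. For both genes the DNMT_KO ESC column stood below every other column. Hist1h4k (H4) had 2.34 against 1.27, Hist1h3c (H3) 2.47 against 1.45, Hist1h3b (H3) 2.06 against 1.08 and Hist1h1c, which encodes a linker histone H1, 2.21 against 1.40 in DNMT_KO EpiLC against ESC. By the histone type in the bait name, the median difference was 0.69 for the 4 H1 promoters, 0.57 for 9 of H2A, 0.69 for 6 of H2B, 0.67 for 4 of H3 and 0.72 for 10 of H4. Some baits hold genes of several types, such as the Hist1h4i bait, which also holds an H2A gene. The types are therefore not fully separate in these values. All 26 Hist1 promoters were above 0 in DNMT_KO, with a median of 0.65, against 0.03, -0.14 and -0.25 in DNMT_WT, TET_WT and TET_KO. The 5 Hist2 promoters on chromosome 3 had a median of 0.47 in DNMT_KO, against 0.02, 0.23 and 0.35 in those lines. Hist1h2al, an H2A gene outside the main cluster, was near equal at 2.41 in DNMT_KO EpiLC against 2.35 in ESC.

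The contacts behind these values joined the 2 groups of Hist1 baits, at 21.72 to 22.04 Mb and 23.52 to 23.94 Mb of chromosome 13. Between the groups, 223 contacts reached 5 in DNMT_KO EpiLC, against 68 in DNMT_KO ESC. The same contacts numbered 174 in EpiLC against 169 in ESC of DNMT_WT, 202 against 199 of TET_WT and 138 against 244 of TET_KO. Within the first group the DNMT_KO columns held 111 and 37 contacts (EpiLC and ESC), and within the second 174 and 63. In the first group the counts were 85 and 43 in DNMT_WT, 65 and 61 in TET_WT, and 42 and 38 in TET_KO. In the second they were 132 and 172, 131 and 169, and 70 and 107. The DNMT_KO ESC count was the lowest of the 8 columns in each of these 3 classes, but within the groups TET_KO columns came close to it. In the first group the EpiLC count was the higher one in every line. A contact between baits can be listed from both ends. The bait of Hist1h2bl (H2B) had 65 contacts at 5 or more in DNMT_KO EpiLC, against 5 in DNMT_KO ESC, and the 6 other columns had 35 to 69. Neighbouring histone genes are alike in sequence, and how far reads could be placed among them was not tested.

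Whether the stage difference of DNMT_KO differed from that of the other lines was tested with limma, with line as a block and Benjamini-Hochberg adjustment, assuming that DNMT_KO varies like the other 3 lines. Among all 15677 promoters 0 passed an adjusted p of 0.05 (0%), with 970 at an unadjusted p under 0.05 and a smallest adjusted p of 0.111. Among the 8537 promoters with at least 10 listed contacts, 2 passed (0.0234%), and both were histone genes. Hist1h2bg had a stage difference 1.26 higher in DNMT_KO than in the mean of the other lines (SE 0.195, limma adjusted p = 0.00582) and Hist1h4i one that was 1.25 higher (SE 0.233, limma adjusted p = 0.0469). The 6 others of the 8 largest were Hist1h3b, Vwc2, Hist1h1c, Zic5, Lysmd3 and Hist1h4k, with stage differences 1.23 to 1.31 higher in DNMT_KO and limma adjusted p-values of 0.0783 (Hist1h1c) to 0.559 (Vwc2). The number that passed depended on the lines used: of the promoters with at least 10 contacts 84 passed without DNMT_WT, 3 without TET_WT and 0 without TET_KO, and of all promoters 13, 1 and 0. Hist1h2bg and Hist1h4i passed without DNMT_WT and without TET_WT, and had limma adjusted p-values of 0.0745 and 0.170 without TET_KO.

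The same test on 244865 single cis contacts passed 19 (0.00776%), 11 with a higher and 8 with a lower stage difference in DNMT_KO, while 13516 had an unadjusted p under 0.05. No contact passed when any of the 3 other lines was left out. Of the 19, 5 joined the parts of the Hist1 cluster and its neighbour Abt1, all higher in DNMT_KO EpiLC, and 16 spanned more than 1 Mb. Hist1h2bf had a score of 30.7 in DNMT_KO EpiLC, against 0 in DNMT_KO ESC, with a fragment 1535 kb away at 22.04 Mb, while the 6 other columns lay between 8.38 and 15.2 (limma adjusted p = 0.00267). The contact of Hist1h4a with the Hist1h2bl bait had scores of 14.3 and 0 in DNMT_KO EpiLC and ESC, against 7.12 and 15.6 in DNMT_WT, 6.79 and 26.4 in TET_WT and 3.00 and 9.38 in TET_KO (limma adjusted p = 0.00267). In all 11 higher contacts the DNMT_KO ESC score was at most 0.528 and the EpiLC score at least 9.40. In all 8 lower ones the DNMT_KO EpiLC score was at most 1.34 and the ESC score at least 7.37. In 7 of the 11 and in 5 of the 8, every one of the 6 other columns was at 5 or more. A further 8 of the 19 linked baits near 88 Mb of chromosome 1 with its first 5 Mb, 7 of them lower, and are described with the long distances.

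Genes that are first used in the formative and primed epiblast, the state that EpiLC model, mostly had a higher contact strength in DNMT_KO EpiLC than in DNMT_KO ESC. Of the 14 promoters on the list, 6 (42.9%, against 4.45% of all promoters) were higher by at least a doubling and 0 lower (against 4.86%), and the median difference was 0.50, against 0.06 in DNMT_WT, 0.01 in TET_WT and 0.13 in TET_KO. The median of all promoters in DNMT_KO was -0.01. The DNMT_KO EpiLC value was the highest of the 4 EpiLC columns for 8 of the 14, against 3698 of all 15677 promoters, and the DNMT_KO ESC value the lowest of the 4 ESC columns for 7, against 3925. Utf1, a chromatin-bound factor of pluripotent cells, had a strength of 2.07 in DNMT_KO EpiLC, against 0.59 in DNMT_KO ESC, and the difference in DNMT_WT was as large at 2.38 against 0.79. Etv5, an ETS factor, was also alike in these lines, with 2.23 in DNMT_KO EpiLC against 1.52 in ESC and 2.29 against 1.62 in DNMT_WT. Pou3f1, a POU factor of the primed epiblast, was lower at 1.54 in DNMT_KO EpiLC against 1.85 in ESC, and its difference was between -0.37 and -0.27 in the other lines.

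The zinc-finger genes Zic2 and Zic5, which lie next to each other, were higher in DNMT_KO EpiLC than in ESC, while their differences in the other lines were below 0 or near it. The difference between lines did not pass the limma test for Zic5 (adjusted p = 0.113). Zic5 had 2.49 in DNMT_KO EpiLC, against 1.49 in DNMT_KO ESC, while its difference was -0.27 in DNMT_WT, -0.29 in TET_WT and -0.15 in TET_KO. Zic2 had 2.55 against 1.81, with -0.19, -0.10 and 0.02 in those lines. Both contacted fragments inside Clybl, a neighbouring metabolic gene. The fragment with the highest Zic2 score had 22.3 in DNMT_KO EpiLC against 3.66 in DNMT_KO ESC, and 10.9 to 15.3 in the 6 other columns, at a distance of 219 kb. The same fragment had 16.8 against 3.03 with Zic5. Of the Zic2 contacts, 14 reached 5 in DNMT_KO EpiLC and 2 in DNMT_KO ESC, against 12 and 15 in DNMT_WT. The DNMT_KO ESC column was thus low at this locus and the DNMT_KO EpiLC column high. Sox3, a SOX factor on chromosome X, had 34 contacts at 5 or more in DNMT_KO EpiLC against 6 in ESC, where DNMT_WT had 17 against 3, TET_WT 25 against 9 and TET_KO 13 against 10. Many of these Sox3 contacts, and some of the Zic5 ones, reached 5 in DNMT_KO EpiLC alone and were listed through that column. The Sox3 count and the Zic5 strength therefore follow in part from the listing. Lef1, a nuclear partner of beta-catenin in Wnt signalling, had 2.32 against 1.61 in DNMT_KO, and its difference was 0.17, 0.04 and 0.11 in DNMT_WT, TET_WT and TET_KO.

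**Figure D3:**
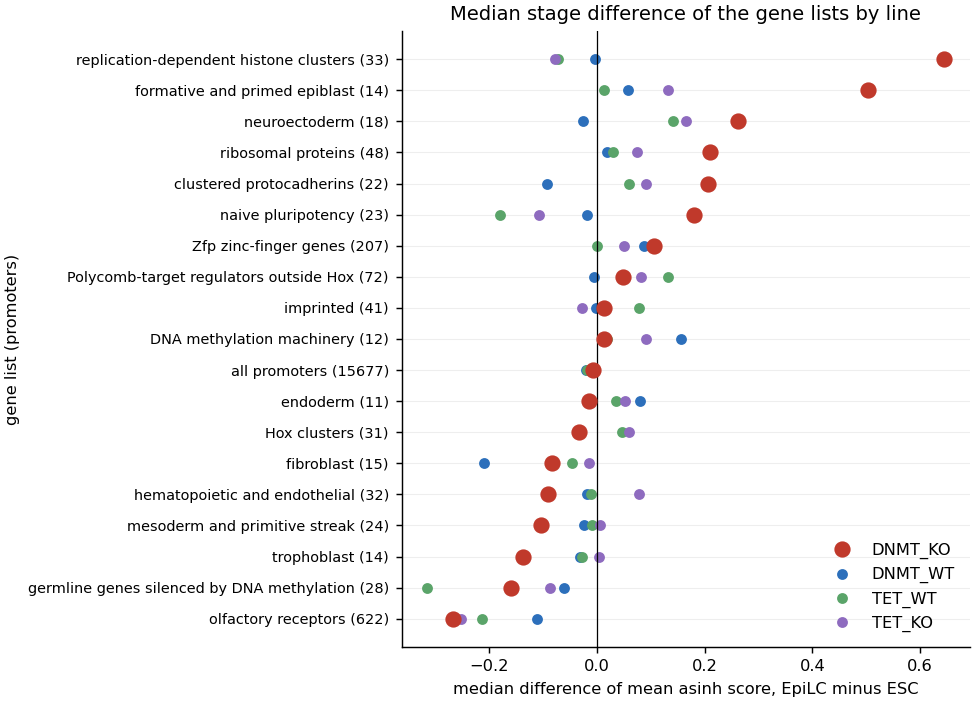
Median EpiLC minus ESC difference of the promoters of each gene list, in units of mean asinh score, for DNMT_KO (large red points) and the other 3 lines; the number of promoters is in brackets. DNMT_KO lies to the right of the other lines by the widest margins for histone genes (0.64) and formative and primed epiblast genes (0.50), and olfactory receptors are lowest (-0.27).

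The list of naive pluripotency also holds general pluripotency genes such as Pou5f1 and Sox2. Its promoters had a median difference of 0.18 in DNMT_KO, against -0.02 in DNMT_WT, -0.18 in TET_WT and -0.11 in TET_KO. Of 23 promoters, 3 were higher by a doubling and 1 was lower (against 4.45% and 4.86% of all promoters), and 14 had their lowest ESC value in DNMT_KO. Pou5f1, the gene of the pluripotency factor Oct4, had 2.11 in DNMT_KO EpiLC, against 1.10 in DNMT_KO ESC, while the 6 other columns lay between 1.59 and 1.90. Few contacts stand behind it, of which 2 reached 5 in DNMT_KO EpiLC and 1 in ESC. Those 2 reached 5 in no other column and were listed through DNMT_KO EpiLC alone. Klf4, a naive-state transcription factor, had 1.84 against 1.07, with 7 contacts at 5 or more in DNMT_KO EpiLC and 0 in DNMT_KO ESC. For Klf4 the difference was in the same direction in DNMT_WT (0.20), TET_WT (0.83) and TET_KO (0.70). Nr5a2, a nuclear receptor that binds the Pou5f1 gene, had 2.17 against 1.39, and Nr0b1, a nuclear corepressor of the naive network, was lower at 1.07 against 1.98. Nr0b1 was lower and Nr5a2 higher in EpiLC in every line. Sox2 had 2.14 in DNMT_KO EpiLC against 1.82 in ESC and Nanog 2.00 against 1.74, both less than a doubling. Esrrb had 1.77 against 2.19 and Klf5 1.18 against 1.59, again less than a doubling.

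Among 18 neuroectoderm promoters, 4 (22.2%, against 4.45% of all promoters) were higher by a doubling and 0 lower, with a median of 0.26, against -0.03 in DNMT_WT, 0.14 in TET_WT and 0.16 in TET_KO. Zic1, which acts in the early neural plate, had 2.26 in DNMT_KO EpiLC, against 0.34 in DNMT_KO ESC, and DNMT_WT had 2.05 against 0.48. Its contact with a fragment 1495 kb away had a score of 7.75 in DNMT_KO EpiLC against 0 in ESC, and 1 with a fragment in Rasgrf1 had 5.41 against 0. This Rasgrf1 contact reached 5 in no other column and was listed through DNMT_KO EpiLC alone. Pax6, an eye and forebrain regulator, had 1.75 against 0.94 in DNMT_KO, with differences of -0.15, -0.23 and 0.27 in DNMT_WT, TET_WT and TET_KO. Nkx2-2, a ventral neural tube factor, had 2.59 against 1.75, and Irx3, an Iroquois homeobox gene, had 2.28 in DNMT_KO EpiLC, a difference of 0.78.

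These genes also count among the regulators that Polycomb complexes bind in ESC, the second list they were placed on. Of 72 Polycomb-target promoters outside the Hox clusters, 8 (11.1%, against 4.45% of all promoters) were higher by a doubling and 1 (1.39%, against 4.86%) lower. In the other lines 4 (DNMT_WT), 6 (TET_WT) and 2 (TET_KO) of them were higher. The median was 0.05 in DNMT_KO, against -0.01 in DNMT_WT, 0.13 in TET_WT and 0.08 in TET_KO. Irx1 had 2.13 in DNMT_KO EpiLC, against 0.46 in DNMT_KO ESC, over 5 contacts that all lay at or beside its neighbour Irx2. All 5 also scored higher in EpiLC than in ESC in TET_WT and TET_KO, while DNMT_WT was mixed. The contact at 662 kb had 7.20 against 0.0725 in DNMT_KO and 2.79 against 0.318 in DNMT_WT. In TET_WT it had 6.46 against 3.32, and in TET_KO 10.5 against 4.80. Zic4, the neighbour of Zic1, had 1.81 against 0.26, and Tlx2, a homeobox gene of the enteric nervous system, 2.29 against 1.11. Tlx1, without which no spleen forms, had 2.08 against 0.97, and DNMT_WT had 2.46 against 0.86. Nkx2-1, a lung and thyroid regulator, was lower at 1.51 against 2.21.

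Of 31 Hox promoters, 2 were higher by a doubling and 2 (Hoxa13 and Hoxb1) were lower, with a median of -0.03. These shares of 6.45% each were near the 4.45% and 4.86% of all promoters. A set of contacts of the Hoxa cluster stood at opposite ends in the DNMT_KO columns. It joined 10 baits of the cluster, at 52.16 to 52.27 Mb of chromosome 6, with a fragment about 1 Mb away at chr6:51180767-51183201 (GRCm38), which holds no RefSeq gene. Of these 10 contacts, 9 reached 5 in DNMT_KO EpiLC and 0 in DNMT_KO ESC. In DNMT_WT the numbers were 9 and 5, in TET_WT 4 and 9, and in TET_KO 8 and 8. Hoxa3 had a score of 26.7 in DNMT_KO EpiLC, against 1.15 in ESC, Hoxa10 21.3 against 0, and Mir196b, a microRNA gene of the cluster, 24.4 against 1.32. The contact of Hoxa6 had 22.6 against 0.510 in DNMT_KO, and 7.36 to 14.0 in the 6 other columns (limma adjusted p = 0.0134). The DNMT_KO ESC score was under 4 for every bait, while the other ESC columns spread on both sides of 5. Since the 10 contacts share a fragment, they are not independent measurements.

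**Figure D4:**
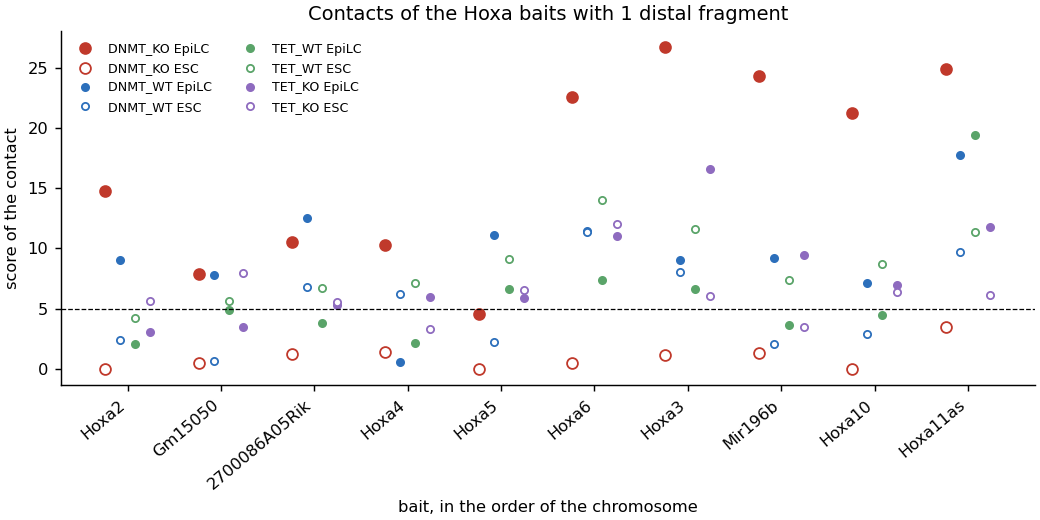
CHiCAGO score of the contact between each of 10 baits of the Hoxa cluster and the fragment about 1 Mb away, in the 8 columns; filled circles are EpiLC, open circles ESC, and the dashed line marks 5. DNMT_KO EpiLC is at 5 or more for 9 baits and DNMT_KO ESC for 0.

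The contact between the promoters of Foxa1, a pioneer factor of endoderm, and Pax9, a paired-box factor of pharyngeal endoderm, was also among the 19. It spanned 850 kb and had a score of 18.8 in DNMT_KO EpiLC, against 0 in DNMT_KO ESC, while the 6 other columns lay between 5.92 and 11.8 (limma adjusted p = 0.0162). From the Pax9 bait, 6 of 8 listed fragments within 50 kb of the Foxa1 bait reached 5 in DNMT_KO EpiLC and 0 in DNMT_KO ESC. The counts were 1 and 1 in DNMT_WT, 2 and 2 in TET_WT, and 1 and 2 in TET_KO. Most of these 6 fragments reached 5 in no other column and were listed through DNMT_KO EpiLC alone. The count therefore follows in part from the listing and adds no separate support. Foxa1 as a promoter had 2.32 in DNMT_KO EpiLC against 1.56 in ESC. Pdx1, a pancreatic regulator, had 2.41 against 1.68, and Afp, an endodermal serum protein, was lower at 1.39 against 2.09. The 11 endoderm promoters as a whole had a median of -0.01.

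Olfactory receptor genes, which act in the sensory neurons of the nose, mostly had a lower contact strength in EpiLC than in ESC. Of 622 promoters, 100 (16.1%, against 4.86% of all promoters) were lower by a doubling in DNMT_KO and 10 (1.61%, against 4.45%) were higher, and the median was -0.27. Their medians were -0.11 in DNMT_WT, -0.21 in TET_WT and -0.25 in TET_KO, with 69, 69 and 94 promoters lower by a doubling. Olfr653, with 26 listed contacts, had 1.28 in DNMT_KO EpiLC against 2.39 in ESC. Germline genes that are silenced by DNA methylation in somatic cells had a median of -0.16, against -0.06 in DNMT_WT, -0.31 in TET_WT and -0.09 in TET_KO. In DNMT_KO 4 of 28 (14.3%, against 4.86% of all promoters) were lower by a doubling and 1 was higher, and 1, 3 and 2 were lower in those lines. Ddx4, an RNA helicase of germ cells, had 1.86 in DNMT_KO EpiLC against 2.74 in ESC, and Dazl, a germ-cell RNA-binding protein, 1.78 against 2.53. Piwil4, an Argonaute protein of the piRNA pathway, had 1.57 against 2.55, and Tuba3b 1.14 against 2.09, while Tex11, a meiotic gene, was higher at 2.37 against 1.64. Dazl was lower in EpiLC in every line, with differences of -0.49, -1.16 and -0.67 in DNMT_WT, TET_WT and TET_KO. Rhox8 and Magea10 were lower by a doubling among 5 promoters on chromosome X of the list of Rhox and other X-linked germline genes (a sixth, Mageb3, had its bait on chromosome 2). They made up 33.3% of the 6 promoters, against 4.86% of all promoters, a share that rests on few members.

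Genes of blood and vessels had a median of -0.09 in DNMT_KO, with 2 of 32 (6.25%, against 4.45% of all promoters) higher and 4 (12.5%, against 4.86%) lower by a doubling. In the other lines 2, 1 and 4 of them were higher and 2, 3 and 1 lower (DNMT_WT, TET_WT and TET_KO). Itga2b, an integrin of early blood cells, had 1.36 in DNMT_KO EpiLC against 2.51 in ESC, over 4 contacts. Its difference was -0.34, -0.05 and -0.57 in DNMT_WT, TET_WT and TET_KO. Ikzf1, a lymphoid zinc-finger factor, had 1.29 against 2.08, Lmo2, a partner of the blood factor Tal1, 1.14 against 1.98, and Runx1, which is needed for definitive blood stem cells, 0.60 against 1.36. In DNMT_WT, TET_WT and TET_KO the differences were -0.54, -0.77 and -1.33 for Ikzf1. They were 0.57, -0.75 and 0.14 for Lmo2, and -0.53, -0.14 and 0.17 for Runx1. Meis1, a homeobox gene of blood stem cells, had 1.78 against 1.05 and Csf3r, a cytokine receptor, 1.92 against 1.23. Csf3r was higher in EpiLC in every line, by 0.65, 0.39 and 0.83 in DNMT_WT, TET_WT and TET_KO. For Meis1 the differences in those lines were 0.14, 0.26 and -0.05. Of 41 imprinted promoters, Plagl1 and Xist (4.88%, near the 4.45% of all promoters) were higher by a doubling, and the median of the 41 was 0.01. Ribosomal protein genes had a median of 0.21 in DNMT_KO, against 0.02 in DNMT_WT, 0.03 in TET_WT and 0.07 in TET_KO. Of 48, 5 (10.4%, against 4.45% of all promoters) were higher by a doubling and 2 (4.17%, against 4.86%) lower. Rpl18 had 2.29 in DNMT_KO EpiLC against 1.25 in ESC. The 22 clustered protocadherin promoters had a median of 0.21, with 0 past a doubling. Among 24 mesoderm and primitive streak promoters none was past a doubling and the median was -0.10. Of the trophoblast genes Id2 was higher (1 of 14, 7.14%, against 4.45% of all promoters), and of the fibroblast genes Twist2 was lower (1 of 15, 6.67%, against 4.86%). In DNMT_WT, TET_WT and TET_KO the difference was 0.71, 1.17 and 0.37 for Id2, and -0.96, 0.10 and -0.33 for Twist2. Among 207 zinc-finger genes of the Zfp family 13 (6.28%, against 4.45% of all promoters) were higher, 4 (1.93%, against 4.86%) were lower and the median was 0.11. No promoter of the 2-cell stage list was among those analysed.

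The promoters of the deleted genes were among those analysed, with few contacts. At 5 or more, Dnmt1 had 0 of 3 in DNMT_KO EpiLC and 1 in ESC, Dnmt3a 2 of 7 and 2, and Dnmt3b 4 of 4 and 3. Dnmt1 had a strength of 2.08 in DNMT_KO EpiLC against 2.22 in ESC, Dnmt3a 2.08 against 2.08 and Dnmt3b 2.73 against 2.56. None of the 12 promoters of the DNA methylation machinery was past a doubling.

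The promoters with the largest differences held developmental and unrelated genes. Among those with at least 10 contacts, the highest difference was that of Actl7a, a testis gene of the actin family, with 1.78 in DNMT_KO EpiLC against 0.41 in ESC. It was followed by Hist1h4i, by Magi2, a scaffold protein of cell junctions (1.77 against 0.46), by Lysmd3 (2.32 against 1.06), and by Map3k7, a kinase of TGF-beta and immune signalling (2.13 against 0.98). Osr2, an odd-skipped zinc-finger factor, Mir196b, Fam54a, Tlx1, Echs1, an enzyme of fatty acid oxidation, Vwc2, a BMP antagonist, and Haus7, a subunit of the spindle factor augmin, completed the 12. Actl7a and Magi2 were higher in EpiLC in every line, by 0.69 to 0.83 and by 0.88 to 1.32 in the other 3. Vwc2 had 1.47 in DNMT_KO EpiLC against 0.39 in ESC, and its difference was -0.50, -0.18 and 0.01 in DNMT_WT, TET_WT and TET_KO.

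The largest difference in the other direction was that of Mir717, with 0.77 in DNMT_KO EpiLC against 2.35 in ESC. Tacr2, a tachykinin receptor, had 1.39 against 2.75, and Il10ra, a receptor chain of interleukin 10, 1.25 against 2.45. Tm4sf20, Slc3a1, which carries cystine and basic amino acids, Lrrc63, Olfr653, Rpl9-ps6, Chmp6, a subunit of the membrane remodelling complex ESCRT-III, Cyp2d34 and Mrpl39, a mitochondrial ribosomal protein, were also among the 12. Of the 12, only Rpl9-ps6 had a difference above 0 in another line, at 0.40 in DNMT_WT. Against the mean of the other lines, the lowest stage differences were those of Sfi1, Olfr1500, Asb17, Mir767, Gng7, Olfr551, Cyp2d34 and Tacr2, none of which passed the limma test. Gng7, a G-protein subunit, had 1.82 in DNMT_KO EpiLC against 2.71 in ESC, and the 6 other columns lay between 1.87 and 2.15.

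At the level of single cis contacts, 24552 (9.53% of those listed) were at 5 or more in DNMT_KO EpiLC and under 3 in DNMT_KO ESC, and 19051 (7.40%) were the reverse, while 39940 were at 5 or more in both. Of the contacts found in EpiLC only, 2562 were also EpiLC-only in DNMT_WT, which is 10.4% of the DNMT_KO set and 12.7% of the DNMT_WT set, and 559 were ESC-only there. Of all cis contacts, 7.85% were EpiLC-only and 6.94% ESC-only in DNMT_WT. The overlap of 10.4% was thus somewhat above its share, and the opposite one (2.28%) was below its share. Of the ESC-only contacts, 1511 were also ESC-only in DNMT_WT (7.93% and 8.45% of the sets), against 6.94% of all cis contacts. A further 677 (3.55% of the DNMT_KO set) were EpiLC-only there, against 7.85% of all cis contacts. In all 4 lines, 70 contacts were EpiLC-only and 34 were ESC-only. The numbers to be expected from the shares of the single lines were not computed. These 2 counts therefore do not show by themselves whether the lines agreed much or little. A contact near the threshold can cross it by counting error, and with 1 column per group the share of such contacts could not be measured. Fragments that are themselves baits made up 11.8% of the EpiLC-only and 6.96% of the ESC-only contacts of DNMT_KO, against 7.68% and 8.70% in DNMT_WT, 6.43% and 9.21% in TET_WT and 7.43% and 6.92% in TET_KO. Between baits within 1 Mb, 10024 contacts reached 5 in DNMT_KO EpiLC and 8098 in DNMT_KO ESC, while DNMT_WT had 9143 and 9875.

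Within 1 Mb, the 10 highest EpiLC contacts that were under 1 in DNMT_KO ESC had scores of 12.7 to 18.8, and 9 of the 10 were higher in EpiLC in DNMT_WT, 8 in TET_WT and 8 in TET_KO as well. Besides Foxa1, Pax9 and Hoxa2, they included Foxo1, a forkhead factor of insulin signalling (14.4 in DNMT_KO EpiLC against 0.264 in ESC), Nkx6-1, a motor neuron and beta-cell factor whose contact lay at the bait of Agpat9 (13.7 against 0.261), and Six4, a homeobox gene (12.7 against 0.831). Zfp839, Aox1, Plk2 and Psmg4 made up the rest. The 10 highest ESC contacts that were under 1 in DNMT_KO EpiLC had scores of 9.81 to 13.4, and 6 of the 10 were higher in ESC in DNMT_WT, 3 in TET_WT and 5 in TET_KO. Nkx2-1 had 0 in DNMT_KO EpiLC against 11.2 in ESC with a fragment 484 kb away, and the ESC score was above the EpiLC score in every other line. Osr1, a relative of Osr2 in kidney and limb mesoderm, had 0.153 against 11.3, while the 6 other columns lay between 5.90 and 14.7. Ephb1, an ephrin receptor, had 0.507 against 11.8. Tfpt, C86695, Akr1d1, Vmn1r218, Macc1, Krt78 and Cacna1a made up the rest.

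Some baits held many of these contacts. Slc6a8, the creatine transporter gene on chromosome X, had 39 contacts at 5 or more in DNMT_KO EpiLC, against 1 in DNMT_KO ESC. The EpiLC count was above the ESC count for it in DNMT_WT (25 against 5), TET_WT (35 against 12) and TET_KO (34 against 11) too. Inhba, which encodes the activin A subunit, had 34 against 6. It ran the same way in DNMT_WT (23 against 4), TET_WT (25 against 1) and TET_KO (35 against 12). Shroom3, which links actin to apical constriction, had 44 against 15. For Shroom3 the counts were 20 and 12, 21 and 22, and 19 and 13 in EpiLC and ESC of DNMT_WT, TET_WT and TET_KO. In the other direction, Sstr1, a somatostatin receptor, had 3 against 30, and DNMT_WT (3 against 26), TET_WT (3 against 25) and TET_KO (11 against 18) ran the same way. Hoxb6 had 9 contacts at 5 or more in DNMT_KO EpiLC against 37 in ESC. DNMT_WT ran the same way (16 against 34), while TET_WT (30 against 20) and TET_KO (30 against 25) ran the other way. Abt1 and Hist1h4h of the Hist1 region, with 28 EpiLC-only contacts each, were on the list, as were Rpa2, Sdc3 and Snord85 on chromosome 4 and Hjurp, Ugt1a1 and Heatr7b1 on chromosome 1.

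The distances of the called contacts differed between the stages. From 25 to 100 kb, 12267 contacts reached 5 in DNMT_KO EpiLC, against 9708 in DNMT_KO ESC, a ratio of 1.26. Under 25 kb the counts were 5553 and 5053 (1.10), from 100 to 500 kb 55604 and 55571 (1.00), and from 500 kb to 1 Mb 9256 and 8101 (1.14). From 1 to 10 Mb they were 4129 and 2184 (1.89), and without chromosome 4 they were 2345 and 835 (2.81). In that class the ratio was 2.88 in DNMT_WT, above that of DNMT_KO, 1.71 in TET_WT and 1.36 in TET_KO, and without chromosome 4 it was 1.78, 1.71 and 1.34, all below that of DNMT_KO. Counts of contacts depend on depth, which is unknown for both columns of a ratio. The ratios are therefore best compared between distance classes of 1 line, and less safely between lines. After quantile normalisation between columns, the class from 100 to 500 kb was the one of these with a ratio under 1 (0.937).

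**Figure D5:**
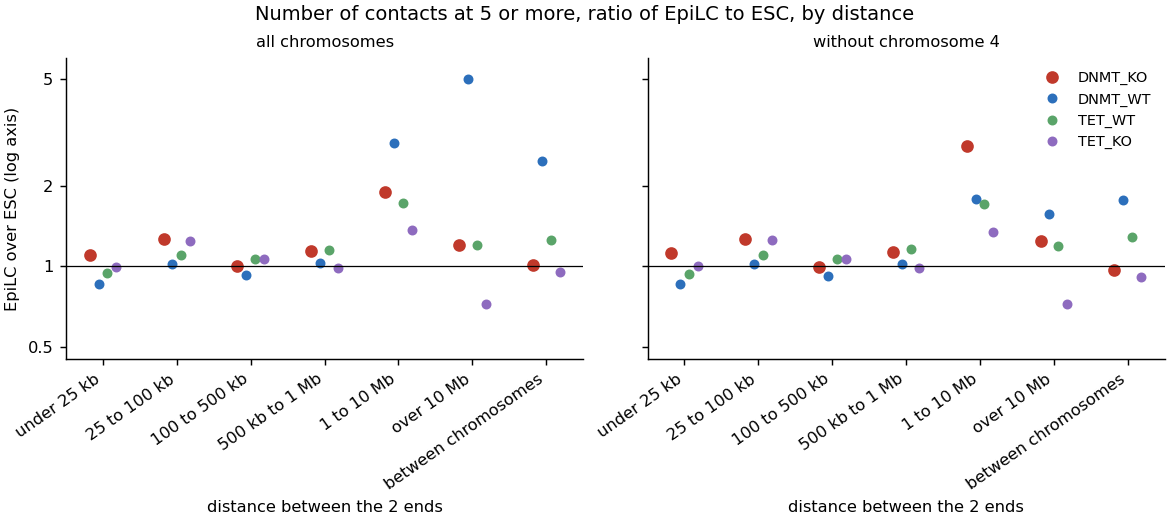
Ratio of the number of contacts at 5 or more in EpiLC to that in ESC, by the distance between the ends, for DNMT_KO (large red points) and the other 3 lines, on a log axis; the right panel leaves out chromosome 4. In DNMT_KO the ratio is highest from 1 to 10 Mb, at 1.89 with chromosome 4, where DNMT_WT is at 2.88, and 2.81 without it.

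Beyond 5 Mb most contacts of DNMT_KO lay on chromosome 4, with 1933 at 5 or more in EpiLC and 1755 in ESC. In DNMT_WT these contacts numbered 2222 in EpiLC and 205 in ESC, and TET_WT and TET_KO had between 8 and 19. There, 125 to 130 Mb met 150 to 155 Mb (372 contacts in DNMT_KO EpiLC against 265 in ESC), 130 to 135 Mb met 140 to 145 Mb (361 against 420), 135 to 140 Mb met 145 to 150 Mb (344 against 292), and 125 to 130 Mb met 155 to 160 Mb (241 against 178). On chromosome 1, baits at 85 to 90 Mb met the first 5 Mb in 191 contacts in DNMT_KO EpiLC against 288 in ESC, and this joining was present in every column (191 to 527). Ugt1a1, which encodes the enzyme that conjugates bilirubin, had 82 ESC-only contacts, and Hjurp, the chaperone of the centromeric histone CENP-A, had 67 EpiLC-only and 46 ESC-only ones. On chromosome 11, 85 to 90 Mb met 100 to 105 Mb in 125 contacts in DNMT_KO EpiLC against 7 in ESC, with 108 against 19 in DNMT_WT, 137 against 73 in TET_WT and 15 against 6 in TET_KO. Beyond 1 Mb, the 5 highest EpiLC contacts that were under 1 in DNMT_KO ESC (24.8 to 33.8) belonged to Hist1h4h, Hist1h2bf, Abt1, Slc7a14 and Hjurp, and the 5 highest ESC contacts that were under 1 in EpiLC (25.3 to 30.1) to Ugt1a1, Hjurp, Kcnmb2 and Heatr7b1. Slc7a14 and Kcnmb2, 2 genes of chromosome 3, met the same fragment, 31640 and 31056 kb away, the first with 25.2 in DNMT_KO EpiLC against 0 in ESC and the other with 0.349 against 26.5. Contacts between chromosomes numbered 1015 and 1008 in DNMT_KO EpiLC and ESC. What joins these distant regions was not tested.

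The CpG content of the promoters was set beside the stage difference, because CpG is where the missing enzymes act. RefSeq promoter sequences (GRCm38.p6) were given for the genes of 9967 of the 15677 promoters, and for 9272 of these (93.0%) the 250 bases before the start lay on the bait. Since that is 59.1% of all promoters analysed, the values describe the matched promoters and are void as a check of all. In DNMT_KO, the 1578 promoters with up to 2 CpG had a median difference of -0.16, with 10.6% lower and 2.47% higher by a doubling. Their median was -0.07 in DNMT_WT, -0.09 in TET_WT and -0.15 in TET_KO, so it was about as low in TET_KO. The 2834 promoters with 11 to 20 CpG had a median of 0.06 in DNMT_KO, with 2.68% lower and 5.79% higher, and the 2114 with 21 or more had 0.07, with 2.74% lower and 4.87% higher. The promoters with few CpG were thus lower in EpiLC more often than higher, and those with many were more often higher. Across promoters, the Spearman correlation of the CpG number with the stage difference was 0.173 in DNMT_KO, against 0.0546 in DNMT_WT, 0.0557 in TET_WT and 0.130 in TET_KO. Without the olfactory receptors (8771 promoters) it was 0.132, against 0.0391, 0.0119 and 0.0812. The points share neighbouring contacts, and base composition also differs between these promoters: for the GC share the correlations were 0.141 in DNMT_KO, against 0.0587, 0.0701 and 0.143.

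The 3 promoters with the largest differences in each direction whose 250 bases lie whole on the bait are shown with each CpG in capitals, 5′ to 3′ along the gene. Higher in DNMT_KO EpiLC were Actl7a (chr4:56743172-56743421, plus strand, 1 CpG), Hist1h4i (chr13:22041363-22041612, minus strand, 11 CpG, RefSeq symbol H4c9) and Lysmd3 (chr13:81657556-81657805, plus strand, 36 CpG). Lower were Tacr2 (chr10:62252188-62252437, plus strand, 4 CpG), Slc3a1 (chr17:85028097-85028346, plus strand, 6 CpG) and Lrrc63 (chr14:75130884-75131133, minus strand, 16 CpG). The CpG number thus overlapped between these 2 sets of 3. A count of CpG in a sequence says nothing of its methylation, which was not analysed here.
Actl7a: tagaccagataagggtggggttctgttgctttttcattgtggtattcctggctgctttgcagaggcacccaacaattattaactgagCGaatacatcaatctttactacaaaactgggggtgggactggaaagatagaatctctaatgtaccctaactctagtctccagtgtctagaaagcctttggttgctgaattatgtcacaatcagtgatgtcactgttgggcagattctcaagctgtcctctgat
Hist1h4i: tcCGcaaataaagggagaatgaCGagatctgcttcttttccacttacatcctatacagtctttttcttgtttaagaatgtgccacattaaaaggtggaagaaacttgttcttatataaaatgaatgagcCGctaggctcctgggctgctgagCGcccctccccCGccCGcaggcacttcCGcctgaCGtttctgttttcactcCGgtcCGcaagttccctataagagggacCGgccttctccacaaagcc
Lysmd3: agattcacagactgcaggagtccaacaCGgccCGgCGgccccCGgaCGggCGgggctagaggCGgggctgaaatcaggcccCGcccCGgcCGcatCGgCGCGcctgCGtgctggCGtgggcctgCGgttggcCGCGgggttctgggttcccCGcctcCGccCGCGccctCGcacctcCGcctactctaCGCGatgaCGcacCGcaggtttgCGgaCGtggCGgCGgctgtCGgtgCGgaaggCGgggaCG
Tacr2: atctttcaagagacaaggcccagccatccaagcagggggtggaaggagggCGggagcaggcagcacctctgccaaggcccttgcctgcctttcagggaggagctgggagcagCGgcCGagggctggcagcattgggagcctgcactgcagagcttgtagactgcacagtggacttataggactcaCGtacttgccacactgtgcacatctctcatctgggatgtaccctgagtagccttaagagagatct
Slc3a1: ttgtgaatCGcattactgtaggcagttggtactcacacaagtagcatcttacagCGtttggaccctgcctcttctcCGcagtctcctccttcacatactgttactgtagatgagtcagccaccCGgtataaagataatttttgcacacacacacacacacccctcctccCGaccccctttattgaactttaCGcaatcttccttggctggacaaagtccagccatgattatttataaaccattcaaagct
Lrrc63: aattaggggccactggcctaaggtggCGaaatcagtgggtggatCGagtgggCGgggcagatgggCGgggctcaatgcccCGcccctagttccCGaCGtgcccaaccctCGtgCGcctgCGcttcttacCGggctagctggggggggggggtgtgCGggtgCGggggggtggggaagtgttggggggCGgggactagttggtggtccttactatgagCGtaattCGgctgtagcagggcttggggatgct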

How the data were processed

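The authors deposited a table of CHiCAGO scores with 1 column per line and stage. Per the labels' protocols, cells were fixed, chromatin was cut with HindIII and promoter fragments were captured. The build GRCm38 and the trimming tools Trim Galore 0.6.5 and cutadapt 2.3 are named, per the submitters' processing notes. The sources used here do not name the aligner or the CHiCAGO version, nor how the authors combined the 2 replicates, and the series text speaks of triplicates in general.

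Scores were put on the asinh scale and quantile-normalised over the 8 columns, leaving out 15344 contacts (5.88%) without a score in some column. A promoter's value was the mean over its listed contacts, at least 3 of them. DNMT_KO EpiLC minus DNMT_KO ESC was counted at a difference of 0.69 (ln 2) with no test. The stage difference of DNMT_KO was tested against the other 3 lines with limma 3.58.1 in R 4.3.3 (line as a block, eBayes with a trend, Benjamini-Hochberg adjustment at 0.05). The lone DNMT_KO line is assumed to vary like the others, and each knock-out shares its origin with a wild-type line. On simulated promoters (15677, limma's stage difference in DNMT_KO against the other lines), 89 of 100 changes of 1.5 and 100 of 100 changes of 3 were recovered, with 10 false calls. Changes under 1.5, such as the largest ones named among promoters with at least 10 contacts, were not simulated. Simulated promoters varied independently of each other, unlike those that share contacts. Summaries used Python 3.11.15.

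Named promoters are the 12 largest differences each way among those with at least 10 contacts and a gene name other than a predicted gene, the 8 largest each way against the other lines, those past limma, the 10 largest single contacts each way within 1 Mb (5 beyond), the 8 baits with the most stage-only contacts each way, and up to 4 members of each of 20 gene lists with those past a doubling. The chromosome 11 joining, the Hoxa fragment, the contacts named at list members and further histone, naive and formative members were singled out after their values were seen. The members and lists were chosen with earlier results of these data known. Baits were matched to RefSeq by symbol, and 16138 of 16432 (98.2%) lay within 2 kb of their gene. Alternatives were other scalings, contact subsets, minimum numbers of contacts, score thresholds, chromosome 4 and single lines left out. A few named promoters are not reported here.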

Additional observations from a re-analysis of the deposited data

Results flagged for a closer look

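Differences between DNMT_KO and the other lines drew attention. The stage difference of 2 promoters with at least 10 contacts, Hist1h2bg and Hist1h4i, passed the limma test of DNMT_KO against the other 3 lines, and 19 single cis contacts passed it. For gene lists, the difference between lines was not tested, and a median was picked out where its sign in DNMT_KO was opposite to that in DNMT_WT, TET_WT and TET_KO. This was the case for the replication-dependent histone clusters (0.644 in DNMT_KO, against -0.0042, -0.07 and -0.08), for naive pluripotency (0.18, against -0.02, -0.18 and -0.11) and for endoderm (-0.0141, against 0.08, 0.04 and 0.05). With 20 lists and medians near 0, such opposition in sign can arise for medians as small as the endoderm one.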

How the results depend on the processing

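No paired analysis was possible because the columns carry no replicate numbers, and for the same reason the replicate block and leaving out each replicate were not run. The 24 named promoters kept their direction under every alternative that gave them a value, and 19 to 24 of them stayed past a doubling. Promoters higher and lower by a doubling in DNMT_KO EpiLC against ESC numbered 245 and 253 with at least 10 contacts, 1286 and 1434 with no minimum, 184 and 188 at a difference of 1, and 1084 were higher without scaling. Against the other lines, 0 of all promoters passed limma, 2 with at least 10 contacts, and of all promoters 13 without DNMT_WT, 1 without TET_WT, 1 without scaling and 2 with scores divided by the column mean, and 0 under the other alternatives run. Among promoters with at least 10 contacts, 84 passed without DNMT_WT, 3 without TET_WT and 0 without TET_KO, against 2 with all lines. Single contacts past limma numbered 0 without DNMT_WT, 0 without TET_WT and 0 without TET_KO, against 19 with all lines, 21 without scaling and 22 with scores divided by the column mean. The alternatives for single contacts, and leaving out lines at 10 contacts or more, were chosen after seeing the data, and fewer samples enter when a line is left out. EpiLC-only and ESC-only contacts numbered 5732 and 3439 at a score of 7, 6098 and 3345 with under 1 in the other column, and 48002 and 41955 with under 5 there.

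List medians are given minus that of all promoters. For histone genes the median was 0.492 within 1 Mb and 0.489 at ends that are no bait, against 0.651 with all contacts. The others that moved by more than their spread over the other lines were ribosomal proteins (0.241 with scores in both DNMT_KO columns), mesoderm (-0.0860 without bait ends), endoderm (-0.0323 by the column mean and -0.0403 without bait ends), imprinted genes (-0.0590 within 1 Mb, against 0.020) and trophoblast (-0.0953 without scaling, -0.0931 by the column mean, -0.117 within 1 Mb, -0.0790 without bait ends and -0.143 with scores in both DNMT_KO columns). The imprinted median changed sign in 4 of these alternatives, that of the DNA methylation machinery in 2 (-0.0090 without scaling and -0.0131 by the column mean) and that of endoderm in 1 (0.0064 within 1 Mb), and the cause was not tested. Ratios of called contacts in EpiLC to ESC after quantile normalisation were 1.03 under 25 kb, 1.17 from 25 to 100 kb, 0.937 from 100 to 500 kb, 1.06 from 500 kb to 1 Mb, 2.35 from 1 to 10 Mb, 1.05 over 10 Mb and 0.908 between chromosomes. At a score of 7 they were 1.32, 1.02, 1.21, 1.59 and 1.30 for the classes from 25 kb up, and without chromosome 4 the ratio from 1 to 10 Mb was 2.81. Depth is unknown, so how far it limits the counts in each column could not be measured.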
